A study of Dunaliella salina with 9 samples.

Results

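In Dunaliella salina, 210 of the 76875 listed transcript clusters combined high abundance with a level that hardly differed between the 3 irradiances tested. A cluster is a transcript or a group of similar transcripts that the authors counted together. The members were selected on the deposited read counts, expressed as CPM (counts scaled to a common library total of 1000000). They had a mean of at least 50 CPM over 9 libraries, a highest group mean at most 15% above the lowest, and a highest single library of at most 1.3 times the lowest. These limits are set on the levels themselves, so all levels and differences of the members below are descriptions. Dunaliella salina is a unicellular green alga without a rigid cell wall that lives in salt water. Its cells had been grown at 150 µmol photons m⁻² s⁻¹ and 22 °C in a cycle of 16 h light and 8 h dark, were spun down in mid-exponential growth and were given fresh medium. RNA sequencing followed at 150 (LL), 600 (ML) or 1500 µmol photons m⁻² s⁻¹ (HL), with 3 libraries a group. The labels name no strain, mutant or transgene, and give no time between the change of light and the harvest. The series design calls the samples biological without naming separate cultures, so the errors below may be partly technical.

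When a green alga is moved to stronger light, it typically has to lower the light it harvests, raise its protection against excess excitation and reactive oxygen, and use the extra energy for growth and storage. Transcripts of such pathways are known to change, while transcripts of basic cell functions often keep a steady share of the messenger RNA. Steady transcripts are sought as reference genes, the internal standard against which quantitative PCR measures a changing transcript. Whether a transcript counts as steady depends on what its level is divided by, which is the question most of the values below bear on. RNA per cell was not measured, so every level is a share of the sequenced RNA, and a change in RNA content per cell cannot be seen. Clusters are numbered in the files and carry no gene names there. None of the 76875 identifiers matched a gene identifier, locus tag or accession of the Dunsal1 v. 2 annotation, so no function is given for any member, and 4 members are given by identifier.

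Abundance left few clusters, and the limit on group means removed most of those. A mean of at least 50 CPM was reached by 3099 clusters. Of these, 403 kept all 9 libraries within 1.3-fold and 224 kept the group means within the 15% limit. Both limits were met by 210, which is 6.78% of the abundant clusters. The 193 abundant clusters that met the library limit alone had group means further apart, and 14 clusters met the group limit alone. Below the abundance floor, another 365 clusters met both ratios. The limits fell in a continuous range of values. The member nearest the floor averaged 50.5 CPM, and the nearest cluster outside that met the other limits averaged 49.6 CPM. At the group limit the nearest ratios were 1.149 inside and 1.151 outside, and at the library limit 1.299 inside and 1.301 outside.

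**Figure D1:**
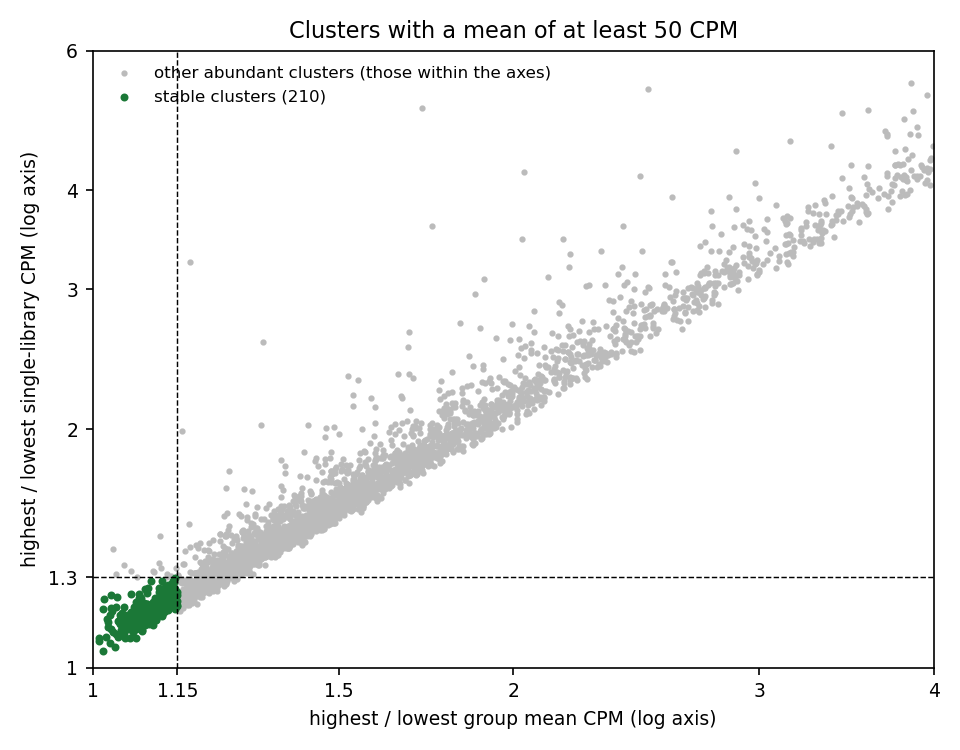
Ratio of the highest to the lowest group mean (horizontal, log axis) against the ratio of the highest to the lowest single library (vertical, log axis), both in CPM, for the 210 stable clusters (green) and the other abundant clusters within the axes (grey). Dashed lines mark both limits, and the points run on across both lines without a gap.

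The stable clusters were well measured and mostly of moderate abundance. Their mean level ran from 50.5 to 2172 CPM with a median of 88.4 CPM, against a median of 95.3 CPM over the other 2889 abundant clusters. In reads, the members averaged 952 to 40945 counts a library, and the lowest count of any member in any library was 839. Library totals ran from 17778225 to 19643714 counts. Per unit of length, the members' mean level was 9.41 to 1029 FPKM (fragments scaled to length and depth, as deposited), with a median of 61.3 FPKM. The very abundant transcripts were nearly absent from the set. Among the 100 clusters with the highest mean CPM there was 1 member, among the top 500 there were 19 and among the top 1000 there were 51. By level, the members made up 6.94% of the 1110 clusters at 50 to 75 CPM, 8.68% of the 530 at 75 to 100 CPM and 7.20% of the 764 at 100 to 200 CPM. The share was 6.14% of 407 clusters at 200 to 500 CPM, 4.72% of 127 at 500 to 1000 CPM and 0.621% of 161 above 1000 CPM, where 1 cluster was a member.

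The single member above 1000 CPM was Cluster-5009.33590, which ranked 47th by mean CPM and 134th by mean FPKM among all listed clusters. It had 2232, 2272 and 2207 CPM in LL, 1989.5, 2115 and 2116 CPM in ML and 2242, 2183 and 2195 CPM in HL. The ML libraries were all below those of LL and HL, and the HL and LL libraries overlapped. Its means were 2237 ± 32.6 CPM in LL, 2073 ± 72.6 CPM in ML and 2207 ± 31.3 CPM in HL (SD, n = 3 each). Its rank by CPM within a library lay between 31 and 70. The cluster has an implied length of 2112 bases, worked out by setting its count against its FPKM value, and its counts were whole numbers in all 9 libraries.

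Cluster-5009.32871 came next in abundance and had, like Cluster-5009.33590, its highest mean in LL and its lowest in ML. It had 929, 931 and 859.6 CPM in LL, 799, 825 and 804 CPM in ML and 819.7, 806 and 815 CPM in HL. All 3 LL libraries were above every other library, and the ML and HL libraries overlapped. The means were 907 ± 40.7 CPM in LL, 809 ± 13.6 CPM in ML and 814 ± 6.77 CPM in HL (SD, n = 3 each), so that the ratio of the highest to the lowest mean, 1.12, was close to the limit. This cluster is long, with an implied 3988 bases, and per length it averaged 211 FPKM against 1029 FPKM for Cluster-5009.33590.

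The members with the smallest spread were ordinary in abundance. Cluster-5009.24805 had 104.3, 104.2 and 100.9 CPM in LL, 103.6, 104.2 and 99.5 CPM in ML and 99.6, 101.8 and 102.9 CPM in HL. All 3 groups overlapped, and the highest library was 1.05 times the lowest. Its coefficient of variation (CV, the SD as a percent of the mean) over the 9 libraries was 1.92%, below the 2.28% that counting alone gives at its mean of 1929 reads. Cluster-5009.24140 had 112.1, 110.2 and 110.4 CPM in LL, 109.5, 109.7 and 112.5 CPM in ML and 113.2, 116.5 and 114.4 CPM in HL. Its HL libraries were all above those of LL and ML, by a margin that is small beside its level. The means were 111 ± 1.02 CPM in LL, 111 ± 1.69 CPM in ML and 115 ± 1.67 CPM in HL (SD, n = 3 each). Its counts were non-whole in 8 of 9 libraries, which can arise when reads are divided among similar sequences, while Cluster-5009.24805 had whole counts throughout.

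**Figure D2:**
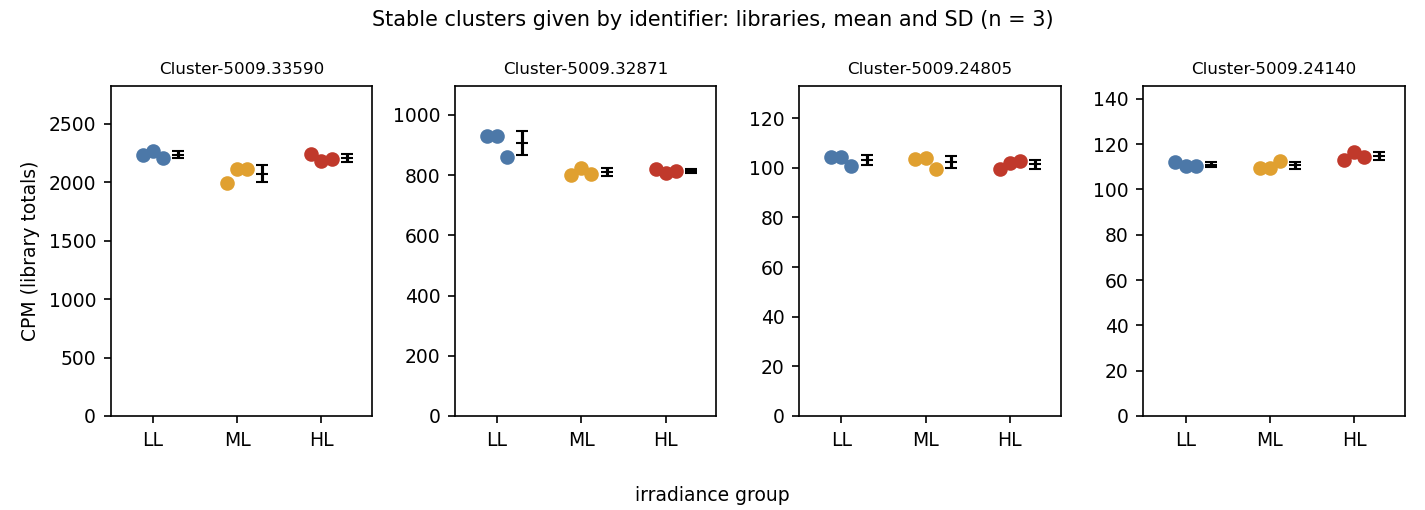
CPM by library totals (vertical, from 0) of the 4 stable clusters given by identifier, in the LL, ML and HL groups (horizontal), with 1 point a library and the mean and SD (n = 3) beside them. Of the 4, Cluster-5009.32871 has the largest ratio of its highest to its lowest group mean, 1.12, and Cluster-5009.24805 the smallest, 1.02.

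Over all members the libraries differed by more than counting error and by far less than in the other abundant clusters. The median CV over 9 libraries was 5.63% for the members (range 1.92% to 8.59%) and 21.2% for the other abundant clusters. Within groups the contrast was small, with a median CV of 3.80% for the members and 4.56% for the others, against a median of 2.45% and 2.36% from counting alone. The rule limits the distance between groups and, through the single-library ratio, also bounds the spread of replicates. The within-group CV was at or below the counting CV for 21 of the 210 members (10%) and for 161 of the 2889 others (5.57%). In the negative binomial fit over all clusters, the median biological CV was 0.0561 for the members and 0.0596 for the other abundant clusters. Over all tested clusters it was 0.198. That fit used TMM factors, described below, and draws each cluster's value towards those of other clusters. Its values therefore cannot be set against the within-group CVs of CPM above.

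The small differences that remained ran mostly towards a lower share at raised irradiance, a lean that the other abundant clusters showed as well. The LL mean was the highest for 106 members (50.5%, others 37.6%), the ML mean for 59 (28.1%, others 35.4%) and the HL mean for 45 (21.4%, others 27.0%). The HL mean was the lowest for 87 members (41.4%, others 46.9%), the ML mean for 79 (37.6%, others 38.0%) and the LL mean for 44 (21.0%, others 15.1%). Among the orders, HL below ML below LL was the most frequent with 59 members (28.1%, others 19.9%), and LL below ML below HL the least with 13 (6.19%, others 6.61%). The median ratio of group means was 0.971 for HL over LL (0.870 to 1.13), 0.977 for ML over LL (0.870 to 1.145) and 0.992 for HL over ML (0.875 to 1.14). Summed over the members, these differences gave the LL libraries 3.003% ± 0.0015 of all counts, the ML libraries 2.91% ± 0.029 and the HL libraries 2.92% ± 0.026 (SD, n = 3 each). The LL libraries held 3.002% to 3.005% each, and the others 2.88% to 2.95%. This order was set on library totals, and other scalings changed it, as given below.

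Groups overlapped more often in the members than in the background, as limits on levels bring about. The HL and LL libraries overlapped in CPM for 120 members, while HL was wholly below LL for 59 and wholly above for 31. The 90 members without overlap compare with 57.1% of all tested clusters and 81.7% of abundant ones. In the other abundant clusters HL was wholly below LL for 56.3% and wholly above for 28.2%. The ML and LL libraries did not overlap for 83 members, of which ML was below for 56 and above for 27. Without overlap were 52.2% of all tested clusters and 81.7% of abundant ones, and of the other abundant clusters ML was below for 50.4% and above for 34.4%. The HL and ML libraries did not overlap for 82 members, of which HL was below for 44 and above for 38. Here 68.2% of all tested clusters and 85.9% of abundant ones did not overlap, and of the other abundant clusters HL was below for 50.1% and above for 39.2%. All 3 pairs of groups overlapped for 63 members (30%) and for 28 of the other abundant clusters (0.969%).

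**Figure D3:**
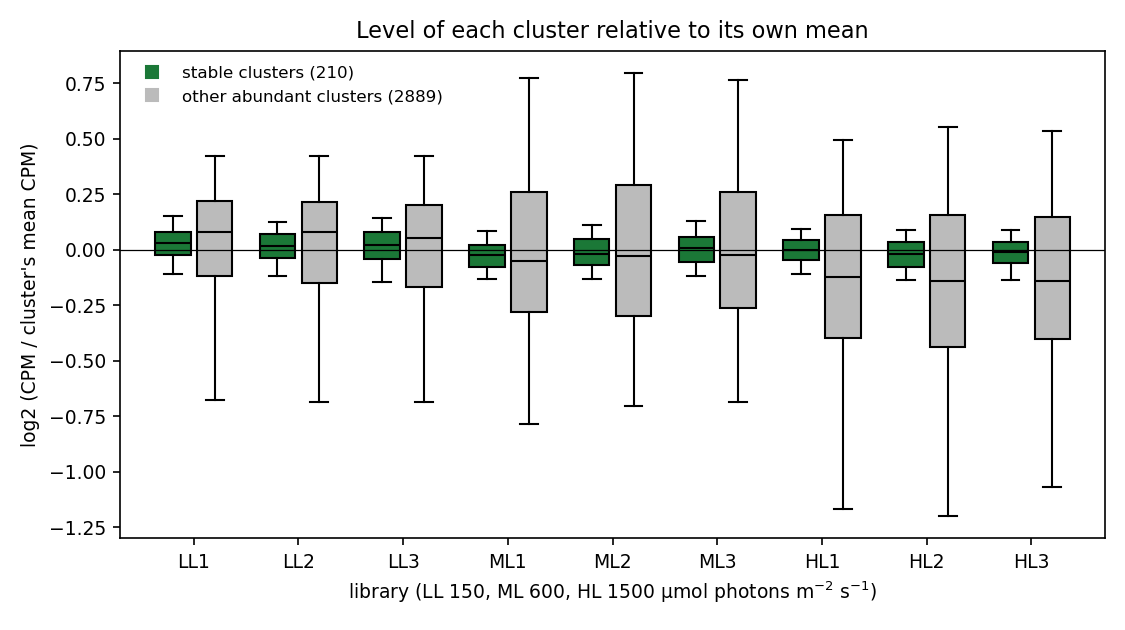
Level of each cluster in each library relative to its own mean over 9 libraries (vertical, log2 of the CPM ratio), for the 210 stable clusters (green) and the 2889 other abundant clusters (grey), by library (horizontal). Boxes show the quartiles with the median and whiskers the central 90% of clusters. The members' medians lie within 3% of their means in every library, while the other clusters' medians lie between 1.04 and 1.06 times the mean for LL, 0.965 and 0.985 for ML, and 0.907 and 0.919 for HL.

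Whether the members look stable depends on the scaling of the libraries. TMM factors, which centre most clusters on no change, averaged 1.03 in LL, 1.06 in ML and 0.918 in HL, so that dividing by them raises HL levels against those of ML. On library totals, the members' geometric mean level relative to each member's own mean was 1.01 for LL, 0.993 for ML and 0.990 for HL. On TMM-scaled levels, HL was the highest group for 195 of the 210 members and ML the lowest for 155, and the median ratio of HL to ML was 1.14. Only 89 of the 210 members met both ratios with TMM sizes, 65 with RLE sizes (median ratios to a reference library) and 143 with upper-quartile sizes. Among all clusters, 218 met the rule with TMM sizes, 207 with RLE sizes and 235 with upper-quartile sizes. The 89 shared clusters were 42.4% of the members and 40.8% of the 218 clusters stable by TMM sizes.

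In the fit over all 34377 clusters that passed an expression filter, all 210 members were tested, and their calls followed the scaling. The fit was edgeR's quasi-likelihood test on rounded counts, with a Benjamini-Hochberg adjusted p below 0.05 as the threshold. For HL against LL with TMM factors, 80 members were called, against 44.6% of all tested clusters and 72.3% of abundant ones. All 80 were higher in HL, where 22.1% of tested clusters were called higher and 22.4% lower. In edgeR 0 members were called lower, and 0 were lower at an unadjusted p below 0.05. DESeq2 called 110 members higher and 0 lower, beside 47.9% of tested clusters called. On log2(FPKM + 1), limma called 8 members higher and 32 lower, beside 48.3% of tested clusters. With library totals alone, 52 members were called for HL against LL, 11 higher and 41 lower in HL, with 44.6% called in the background, 16.1% higher and 28.5% lower, and 76.9% of abundant ones. The members' log2 fold changes had a median of 0.12 with TMM and −0.04 with library totals, and that of all tested clusters 0.01 and −0.15, so that the members lay above the median cluster by a like amount under both. Since the rule used these levels, the calls describe the scaling and carry no evidence about the members.

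ML against LL moved less with the scaling. With TMM factors 51 members were called, 3 higher and 48 lower in ML, against 36.6% of all tested clusters, 17.1% higher and 19.5% lower, and 75.9% of abundant ones. The count of members was 31 without the second LL library, beside 29.7% of the 36466 clusters tested in that fit. It was 28 without the second ML library, beside 28.8% of 35844. With library totals 55 were called, 17 higher and 38 lower in ML, against 35.8% of tested clusters, 17.9% in each direction, and 76.7% of abundant ones. The members' median log2 fold change was −0.07 with TMM and −0.03 with library totals, and the median of all tested clusters 0.04 and 0.07. HL against ML moved most. With TMM factors 146 members were called, all higher in HL, against 58.8% of tested clusters called in either direction, 28.9% higher and 29.9% lower. Among abundant clusters 81.8% were called, 47.6% higher. In edgeR 0 were lower at an unadjusted p below 0.05 as well. DESeq2 called 172 members higher and 0 lower, beside 61.7% of tested clusters, 10587 higher and 10631 lower. On log2(FPKM + 1), limma called 21 members higher and 20 lower, beside 63.2% of tested clusters. With library totals 49 were called, 28 higher and 21 lower in HL, against 58.5% of tested clusters, 23% higher and 35.6% lower, and 81.8% of abundant ones. The members' median log2 fold change was 0.19 with TMM and −0.01 with library totals, and that of all tested clusters −0.07 and −0.28. In the joint test of the 3 groups 138 members were called with TMM and 82 with library totals, beside 62.3% of tested clusters in both cases. Among abundant clusters the joint test called 92.8% and 94.1%.

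**Figure D4:**
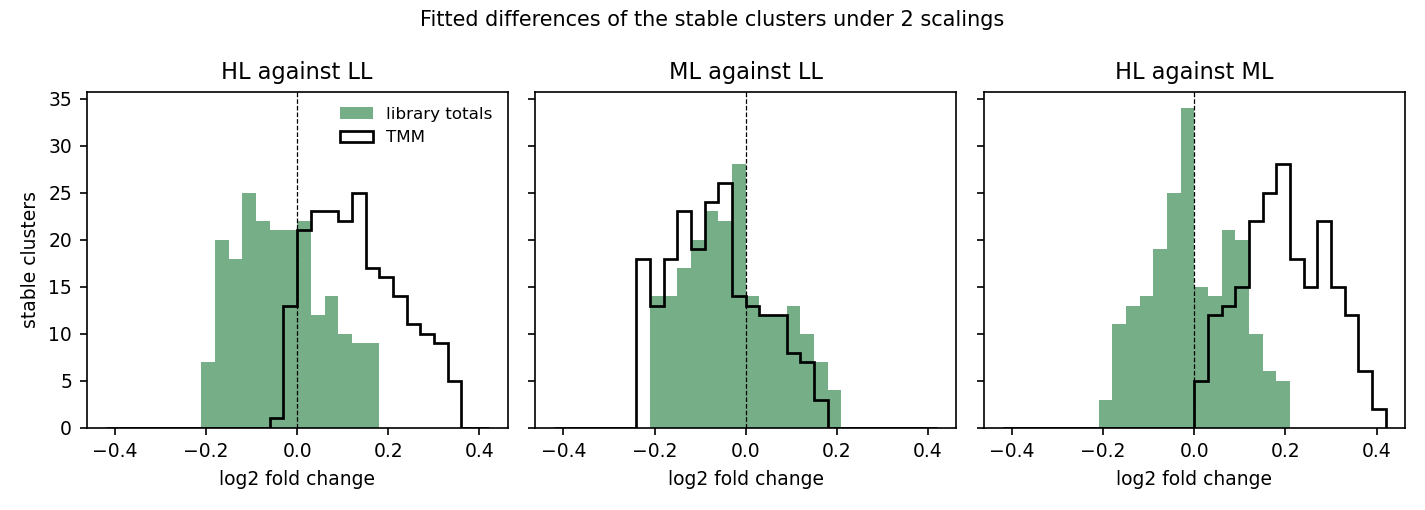
Fitted log2 fold changes (horizontal) of the 210 stable clusters by number of clusters (vertical), in a panel each for HL against LL, for ML against LL and for HL against ML, with library totals (filled) and TMM factors (outline). The outline lies to the right of the filled bars for HL against LL and HL against ML, with medians of 0.12 and 0.19 against −0.04 and −0.01.

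The intervals of the fit describe the members as chosen. They come from the same levels that the rule limits, so that with library totals most are narrow and near 0 by that choice. With library totals the 95% interval of the log2 fold change stayed inside a change of 25% up, or the inverse of that ratio down, for 205 of 210 members in the comparison of HL with LL, 208 in that of ML with LL and 208 in that of HL with ML. With TMM factors the numbers were 154, 183 and 111. Of the 2889 other abundant clusters, 680, 652 and 558 stayed inside these bounds with library totals, in the same order of comparisons. With TMM factors 787, 616 and 561 of them did. The standard error of a member's log2 fold change had a median of 0.05 in each case. Over both scalings and all members, the lowest bound of an interval was −0.41 and the highest 0.55. For Cluster-5009.33590 the log2 fold change of HL against LL was 0.15 (SE 0.04, 95% interval 0.06 to 0.23) with TMM and −0.02 (SE 0.03, −0.09 to 0.05) with library totals. For Cluster-5009.24805, which had the smallest spread, HL against LL gave 0.14 (SE 0.04, 0.05 to 0.23) with TMM and −0.02 (SE 0.03, −0.10 to 0.05) with library totals. Cluster-5009.32871 behaved in reverse: HL against LL gave 0.01 (SE 0.03, −0.06 to 0.08) with TMM and −0.16 (SE 0.04, −0.24 to −0.07) with library totals. Its ML against LL difference, −0.20 (SE 0.03) with TMM and −0.16 (SE 0.04) with library totals, kept its sign under both. Cluster-5009.24140 gave 0.21 (SE 0.04) and 0.05 (SE 0.03) for HL against LL with TMM and library totals in turn.

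A core of 65 members met the rule under library totals, TMM, RLE and upper-quartile sizes together, and every member that met it with RLE sizes belongs to this core. The core averaged 50.5 to 558 CPM with a median of 89.6 CPM, and 33 of its 65 clusters had whole counts in all 9 libraries. None of the 4 clusters given by identifier is in it. Cluster-5009.24805 met the rule with TMM and upper-quartile sizes but not with RLE sizes, and the other 3 met it, beside library totals, with upper-quartile sizes alone. This core was looked for after the data had been seen.

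Of the clusters that met the rule at 2 irradiances, 31.1% to 41.0% had a level within 15% at the third, as against 27.6% to 40.5% of all abundant clusters. Each share lay above its background, from 41.0% against 40.5% with LL left out to 32.6% against 27.6% with HL left out. On library totals, most clusters that were steady at 2 irradiances were thus further than 15% from that level at the third. For each library in turn, the rule was applied to the other 8, and the level in the remaining library, which had no part in the choice although the other 2 of its group did, was compared with the mean of the 8. The rule then chose 205 to 223 clusters, and 87.4% to 99.5% of them lay within 15% of that mean in the library left out, the larger value being at most 15% above the smaller. Of all abundant clusters, 35.9% to 50.5% did so. The libraries of the same group had taken part in the choice, and the within-group CV of abundant clusters had a median of only 4.51%, so these shares for single libraries are no support for stability. The lowest share, 87.4%, came with the third LL library left out and the highest with the first HL library left out. When a whole group was left out and the rule was applied to the other 6 libraries, many more clusters qualified. Between LL and ML, 853 clusters were stable, and 278 of them (32.6%) had an HL mean within 15% of the mean of those groups, against 27.6% of all 3166 abundant clusters. Between LL and HL, 881 were stable, and 274 (31.1%) had an ML mean within 15%, against 29.4% of 3065. Between ML and HL, 705 were stable, and 289 (41.0%) had an LL mean within 15%, against 40.5% of 3036. The left-out mean lay above that of the other groups for 509 of 705 clusters with LL left out, 278 of 881 with ML left out and 246 of 853 with HL left out. These choices and levels use library totals, the abundant clusters include the chosen ones, and no test was made of the differences between the shares.

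**Figure D5:**
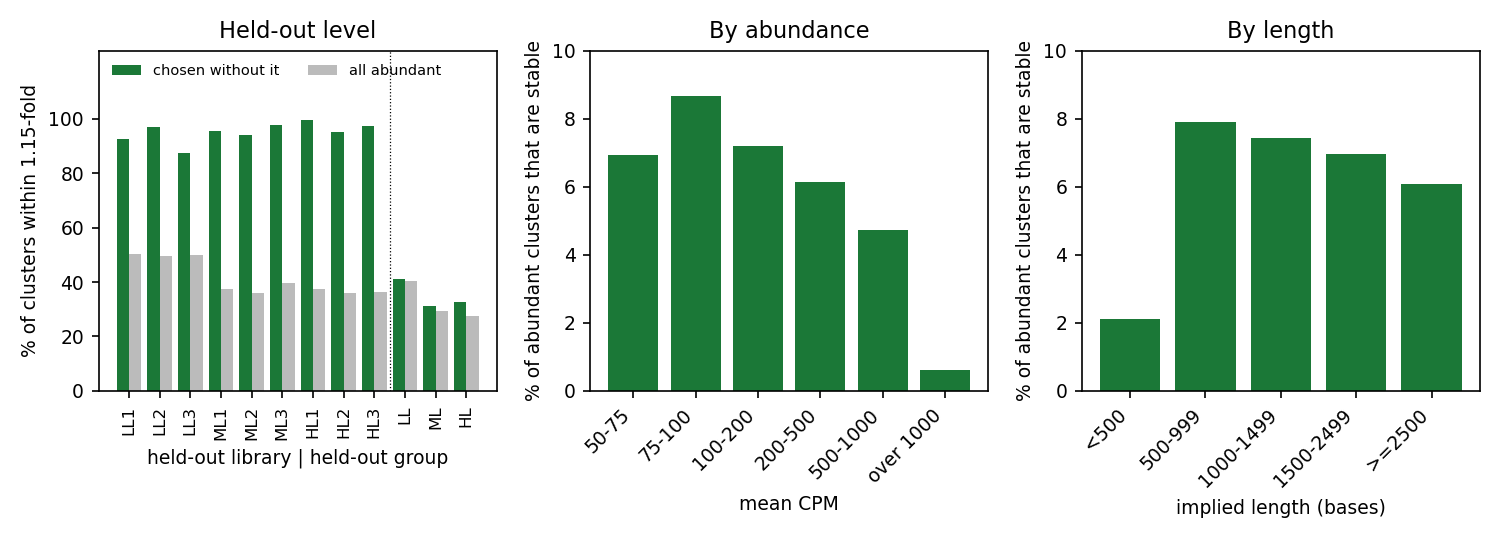
Left, percent of clusters whose level in a library or group left out of the choice lay within 15% of the mean of the others (vertical), for clusters chosen without it (green) and all abundant clusters (grey). Centre and right, percent of abundant clusters that are stable by mean CPM and by implied length in bases. The green bars stand at 87.4% to 99.5% for single libraries and at 31.1% to 41.0% for whole groups, and the share of stable clusters is 0.621% above 1000 CPM and 2.11% below 500 bases.

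The length and the kind of count were not used by the rule. The implied length of the members ran from 302 to 6835 bases with a median of 1585 bases, beside 1689 bases for the other abundant clusters and 1074 bases for all tested ones. Short clusters were few among the members. An implied length below 500 bases was found for 3 of 210 members (1.43%), for 139 of the 2889 other abundant clusters (4.81%) and for 21.9% of all tested clusters. At 2500 bases and above stood 50 members (23.8%), 772 of the other abundant clusters (26.7%) and 12.8% of tested ones. Seen from the abundant clusters, 2.11% of the 142 short ones were stable, against 7.92% of those from 500 to under 1000 bases. The share was 7.44% from there to 1500 bases, 6.97% from there to 2500 bases and 6.08% beyond. The shortest member, of 302 bases, averaged 93.9 CPM and 311 FPKM. The longest, of 6835 bases, averaged 139 CPM and 20.4 FPKM, so that the order of the pair by CPM is turned round per length.

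Whole-number counts were more frequent among the members. Counts were whole, to within 0.005, in all 9 libraries for 109 members (51.9%), for 1189 other abundant clusters (41.2%) and for 39.3% of the tested clusters. They were non-whole in all 9 libraries for 65 members (31.0%), for 1250 other abundant clusters (43.3%) and for 31.8% of tested ones. Where reads were divided among similar sequences, a steady level can hold for the group of sequences and not for each, which was not tested. All 210 members, like all 3099 abundant clusters, carry the leading number 5009 in their identifier, so that the number does not mark the members off.

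The deposited FPKM values gave nearly the same members as they stand, and fewer when each library's FPKM values were brought to a common sum. With FPKM in place of CPM for the ratios, 206 of the 210 members met both limits and 5 other abundant clusters joined them. The implied length of a member varied between libraries by a median CV of only 0.288%. FPKM as deposited therefore nearly repeats the CPM ratios, so this agreement follows from the arithmetic and is no separate support. All 210 kept the 9 libraries within 1.3-fold, and the highest group ratio was 1.154. The FPKM values of a library had a sum between 1056568 and 1065526 for LL, between 1085660 and 1130639 for ML, and between 1129613 and 1145539 for HL. After rescaling each library to the same sum, 118 members met the limits (56.2% of the members) among 152 clusters in all (77.6% of these).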

How the data were processed

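RNA was extracted with Trizol and made into libraries with an Illumina kit, per the labels' protocols. The authors deposited, per the file headers, a read count and an FPKM value for each of 76875 clusters in each of 9 libraries. The deposited counts are estimated counts with decimals, not scaled to depth or length (27.9% to 31.0% of clusters non-whole in a library). The FPKM values were scaled to length and depth by the authors, per the file headers. DESeq 1.10.1 appears in the submitters' processing notes, and the labels used here state no assembler, aligner or counter.

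The members and all lists were chosen with earlier results of these data known. Rounded counts entered edgeR 4.0.16 (R 4.3.3): default expression filter, TMM factors, robust quasi-likelihood fit of group over 9 libraries (6 residual degrees of freedom), Benjamini-Hochberg adjustment over 34377 clusters. Standard errors are the fold change divided by the root of F. Alternatives used limma 3.58.1 on log2(FPKM + pseudocount) and DESeq2 1.42.0. Scripts were tested on simulated data with large, balanced changes in few clusters, which cannot show how the fits handle small differences or a shift in scaling. Implied length is count over FPKM and library total, at an FPKM of at least 0.5. Named members were the 2 with the highest mean CPM and, of the rest, the 2 with the smallest library ratio. Lists of reference and photosynthesis genes could not be used without gene names. Chi-square per degree of freedom between libraries of a group was 6.23 to 9.82, so none repeats another. Counting errors cover counting only.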

Additional observations from a re-analysis of the deposited data

How the results depend on the processing

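The number of members moved with the limits: 434 with a floor of 20 CPM, 87 with 100 CPM, 111 with a group ratio of 1.1 and 399 with group means allowed 25% apart. It was 142 and 224 with library ratios of 1.2 and 1.5, 205 to 223 with 1 library left out, and 65 under 4 scalings together, an alternative chosen after seeing the data, as were the FPKM values as they stand. Members called for HL against LL (80 with TMM) numbered 52 with upper-quartile factors, 52 with library totals, 41 with factors from the members, 32 with no filter, and 40 and 42 with limma at pseudocounts of 1 and 0.1. Of all tested clusters, 44.6% were called with TMM, 18.2% of 73051 with no filter, and 44.5% to 48.3% with the others. For ML against LL (51) upper-quartile factors gave 32, beside 36.2% of tested clusters. For HL against ML (146) the same factors gave 72, library totals 49, the members' factors 52 and limma 41 at both pseudocounts, beside 58.5% to 63.2% of tested clusters. In the joint test (138) they were 84, 82, 72, and 68 at both pseudocounts, beside 62.2% to 68.9%. Leaving out single libraries gave 56 to 96 members for HL against LL, 113 to 156 for HL against ML, 112 to 154 jointly and 28 to 53 for ML against LL, with 31 without the second LL library and 28 without the second ML library. The shares of all tested clusters called in these fits were, in the same order of comparisons, 35.2% to 41.2%, 50.8% to 55.4%, 54.5% to 56.3% and 28.8% to 34.2%. The cause of these shifts in number was not tested. Over all tested clusters, the number called stayed within 1.5 times the count with TMM under every alternative run, although with no filter it was out of 73051 clusters and not 34377. The members' share of counts was 3.01% in LL over tested clusters only, and with 1 library left out between 3.002% and 3.004% for LL, 2.89% and 2.92% for ML, and 2.91% and 2.93% for HL. Among differences called with TMM, signs turned for 2 named members. For Cluster-5009.33590, HL against LL (log2) was −0.020 with library totals and −0.025 with limma at both pseudocounts. For Cluster-5009.24805 the same 3 settings gave −0.024, −0.027 and −0.028, and HL against ML −0.014, −0.016 and −0.017, with −0.021 for factors from the members. Differences not called with TMM turned too. HL against LL of Cluster-5009.32871 (0.011) turned to between −0.16 and −0.0020 under 7 alternatives. Library totals, factors from the members and limma at both pseudocounts called this cluster lower in HL. With the members' factors, ML against LL of Cluster-5009.24140 (−0.041) turned to 0.042 and of Cluster-5009.24805 (−0.047) to 0.037, neither of them called. Same-numbered libraries did not vary together (correlations of deviations −0.039 to 0.011), so the numbers were not taken as pairs. A replicate block gave 75 members for HL against LL, 36 for ML against LL, 138 for HL against ML and 128 jointly. The shares of all tested clusters with the block were 40.1%, 32.5%, 55.5% and 57.6% in turn. Members averaged at least 952 reads. Counting alone gave them a CV of up to 3.24% with a median of 2.45%, beside a median within-group CV of 3.80%, so depth still limits small differences.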
